A study of Gallus gallus with 4 samples.

Results

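The genes described here code for the nuclear-encoded subunits of the mitochondrial respiratory chain and ATP synthase, together with the NDUFAF assembly factors of complex I. The rule takes all probe sets whose platform gene symbol begins with NDUF, UQCR or ATP5, or with COX followed by a digit from 4 to 8. Symbols of the SDH subunits and CYC1 are also taken. The rule goes by name, but it was chosen with earlier results of these data known. The rule found 133 probe sets of 74 genes, among 38439 probe sets of 13009 named genes on the array. It also met 1 probe set that the platform assigns jointly to a cytochrome oxidase subunit and an unrelated gene, which was left out. CYC1, SDHB, SDHC and ATP5D are not analysed here.

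Expression was measured on 4 Affymetrix chicken arrays, 2 of PR9692 cells stably transfected with an shRNA against HOPX and 2 of PR9692 cells stably transfected with a control shRNA. PR9692 is a sarcoma-derived chicken cell line of the CC.R1 strain, and both forms carry a stably transfected shRNA. The design text calls the anti-HOPX form non-metastatic and the control form metastatic, and the comparison asks how their transcripts differ. The labels do not state whether each form is a clone or a pool, or whether the 2 biological replicates were separate cultures, so the p-values measure the spread between these arrays.

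The respiratory chain passes electrons from NADH (complex I) and succinate (complex II) through coenzyme Q, complex III and cytochrome c to oxygen at complex IV, and complexes I, III and IV pump protons across the inner mitochondrial membrane. ATP synthase, complex V, uses the proton gradient to make ATP. Most subunits are coded in the nucleus and imported, a few are coded in mitochondrial DNA, and the subunits of a complex are needed in fixed proportions. In tumour cells oxidative phosphorylation supplies ATP, aspartate and redox balance beside glycolysis.

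Values below are the deposited ones, taken as log2 from their range, so that 1 unit is a 2-fold difference. Differences are anti-HOPX minus control. The submitters' processing notes list GCRMA without stating its role. Probe sets with a mean of at least 4 over the 4 arrays were tested with limma, 14851 in all, with p-values adjusted over all of them. The array medians over the 7691 genes so measured were 8.74 and 8.78 in anti-HOPX cells and 8.80 and 8.79 in control cells. Neither probe set of HOPX reached 4 on any array, with differences of -0.10 and -0.17, so the knockdown could not be checked on these arrays. Of the 10 mesenchymal marker genes 7 were measured, VIM at 15.90 and 15.89 in anti-HOPX cells and 15.97 on both control arrays, whereas LUM, COL1A2 and TAGLN had means under 4. COL1A1, a fibrillar collagen chain, was the 1 marker in that list past the threshold, with a difference of 1.73. COL1A2 was not tested but lay in the opposite direction, at 2.79 and 2.39 in anti-HOPX cells, against 4.16 and 5.36 in control cells. Of the markers of other cell types on the array, 0 of 2 erythroid, 0 of 4 muscle and 0 of 2 epithelial genes were measured. Of 6 macrophage markers 2 were measured, CD74, which rose by 1.45, and SPI1 (0.54, not past the threshold), while PTPRC and MARCO stayed under 4, and of 5 endothelial markers PECAM1 (-0.03) and ERG (-0.54) were measured and did not pass.

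Nearly all genes found by the rule had signal on these arrays, judged by the mean of the 4. NDUFS5 passed by that mean but read 4.39 and 3.99 in anti-HOPX cells and 3.78 and 3.97 in control cells. Of the 74 genes, 70 had at least 1 probe set with a mean of at least 4, against 7691 of 13009 named genes (59.1%), and 88 of the 133 member probe sets passed, against 38.6% of all probe sets. ATP5E, ATP5G2 and COX7B stayed under 4 on every array. The brightest probe set of ATP5J, the F6 subunit of the ATP synthase stalk, read 4.36 and 3.98 in anti-HOPX cells and 3.83 and 3.78 in control cells, which kept it under the mean of 4. A probe set at the floor says only that these probes gave little signal, since 33 of the genes have at least 1 such probe set and for 29 of them another probe set of the same gene was measured. The median value of the 70 genes was 12.07 and 11.89 on the anti-HOPX arrays and 11.71 and 11.68 on the control arrays. Single genes ran from 4.03 for NDUFS5 to 14.39 for ATP5G3, but probe sets differ in how well they bind, so these levels do not rank the transcripts.

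Of the 70 measured genes 4 were higher and 2 lower in anti-HOPX cells. NDUFA8, NDUFA2, NDUFA4 and COX6C rose and NDUFS1 and NDUFA9 fell, each by less than 2-fold. Over all 7691 measured genes, 3.63% were higher and 5.24% lower by the same rule (limma adjusted p under 0.05), so the share of member genes called was near that of the array as a whole. None of the 70 reached 2-fold as well as the threshold, against 2.29% higher and 3.81% lower of all genes. An unadjusted limma p under 0.05 was found for 27 of the 70. The share of all genes under that limit is not given here, so this count and those by complex below have no background to be read against. The 70 differences ran from -0.86 to 0.85, and 59 were smaller than 0.5 in size.

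**Figure D1:**
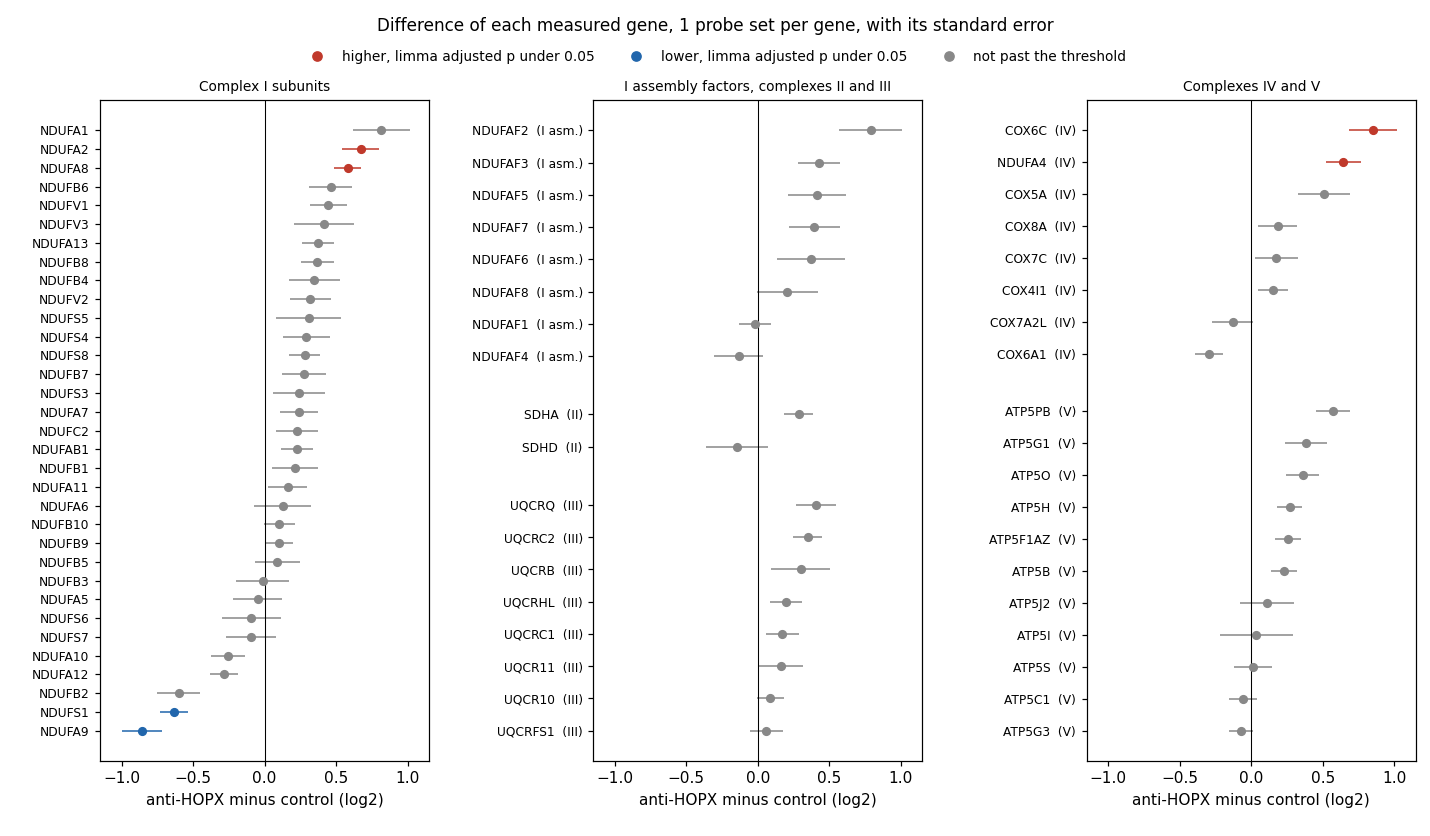
Difference between anti-HOPX and control cells (x axis, log2) for each of the 70 measured genes, 1 probe set per gene, with limma's standard error as the bar and n = 2 arrays per form; "I asm." marks complex I assembly factors. Red points (NDUFA2, NDUFA8, COX6C, NDUFA4) are higher and blue points (NDUFS1, NDUFA9) lower at a limma adjusted p under 0.05, and most grey points lie to the right of 0.

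Small differences above 0 outnumbered those below it. The difference was above 0 in 54 of the 70 genes and below 0 in 16, with a median of 0.23, whereas over all measured genes 52.2% were above 0 and the median was 0.02. Both anti-HOPX arrays lay above both control arrays for 39 of the 70 genes, against 30.0% of all genes, and below them for 7, against 28.2% of all genes. For the other 24 the arrays of the forms overlapped. Centred on each gene's own mean over the 4 arrays, the median member stood at 0.17 and 0.07 on anti-HOPX replicates 1 and 2 and at -0.13 and -0.10 on control replicates 1 and 2. The anti-HOPX arrays differed from each other more than the control arrays did, and without anti-HOPX replicate 1 the median difference was 0.14.

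The members are brighter than most genes, so the counts are given again for those with a mean of at least 10. Among the 55 members with a mean of at least 10 the median difference was 0.20 and 30 were higher without overlap of the arrays (54.5%), against a median of 0.03 and 32.4% among all 2452 genes of that level. At that level 6 members were lower without overlap (10.9%), against 26.6% of all genes. Among the 15 members with a mean under 10 the median difference was 0.30, and no value for all genes under 10 is given here. This split by level was chosen after the values were seen, and no test was made of the list as a whole.

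**Figure D2:**
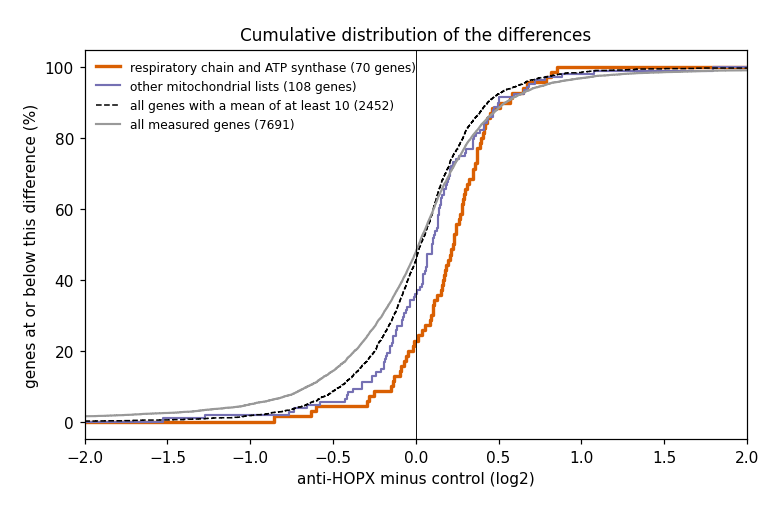
Share of genes (y axis, percent) whose anti-HOPX minus control difference is at or below the value on the x axis (log2), for the 70 respiratory chain and ATP synthase genes, 108 genes of other mitochondrial lists, the 2452 genes with a mean of at least 10 and all 7691 measured genes. The curve of the 70 genes lies to the right of the others through the middle of the plot, with a median of 0.23, against 0.10 for the other mitochondrial lists and 0.02 for all genes.

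Complex I, the NADH dehydrogenase, held both of the genes that fell and 2 of the 4 that rose. It holds 33 of the 70 measured genes, and over all measured genes 5.24% were lower and 3.63% higher by the same rule. All 33 of its subunit genes found by the rule were measured, with a median difference of 0.23. With no overlap of the arrays 18 were higher (54.5%) and 5 lower (15.2%), against 30.0% and 28.2% of all measured genes. Its matrix arm holds the flavin and the iron-sulphur clusters that carry electrons from NADH to coenzyme Q, and its membrane arm holds the proton channels. Differences above 0 were found in 9 of 15 genes of the matrix arm and 14 of 17 of the membrane arm, against 52.2% of all measured genes. With 1 probe set per gene the median difference was 0.24 in the matrix arm and 0.23 in the membrane arm. Over all measured probe sets it was 0.03 in the matrix arm and 0.19 in the membrane arm.

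NDUFS1, the large core subunit of the matrix arm that binds several iron-sulphur clusters, read 13.37 and 13.48 in anti-HOPX cells, against 14.10 and 14.02 in control cells. Both anti-HOPX arrays were below both control arrays. Its level fell by 0.63 (SE 0.09, limma adjusted p = 0.022), which is 1.55-fold lower. The other measured probe sets of NDUFS1 had differences of -0.57, which passed (limma adjusted p = 0.037), and -0.55, which did not (limma adjusted p = 0.14), so all 3 lay on the same side.

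NDUFA9, an accessory subunit beside the site where coenzyme Q binds, read 10.61 and 10.87 in anti-HOPX cells, against 11.65 and 11.54 in control cells. The forms did not overlap, and its level fell by 0.86 (SE 0.14, limma adjusted p = 0.027), or 1.81-fold. Its dimmer probe set read 5.10 and 5.54 in anti-HOPX cells and 5.71 and 5.65 in control cells (difference -0.36, limma adjusted p = 0.39), and the 1.81-fold value rests on the brighter one.

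Most of the other core subunits of complex I lay above 0. NDUFV1, which binds NADH and the flavin, read 11.08 and 11.29 in anti-HOPX cells and 10.70 and 10.78 in control cells, a difference of 0.45 (limma adjusted p = 0.11). Its partner NDUFV2 differed by 0.32 and the iron-sulphur subunit NDUFS8 by 0.28, both without overlap of the arrays but neither past the threshold. NDUFS3 differed by 0.24 and NDUFS7 by -0.10, the last with overlapping arrays. Of the 6 core subunits analysed, 4 were thus above 0 and 2 below, against 52.2% of all measured genes above 0. NDUFS1 was the 1 that passed.

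NDUFA2, a small accessory subunit of the matrix arm with a thioredoxin-like fold, read 10.78 and 10.67 in anti-HOPX cells, against 10.04 and 10.06 in control cells. It rose by 0.67 (SE 0.13, limma adjusted p = 0.039), which is 1.59-fold, and the forms lay well apart. NDUFA8, a membrane-arm subunit on the intermembrane-space side, read 12.83 and 12.85 in anti-HOPX cells, against 12.25 and 12.28 in control cells. It rose by 0.58 (SE 0.10, limma adjusted p = 0.028), or 1.50-fold, with very little spread between the arrays of either form.

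**Figure D3:**
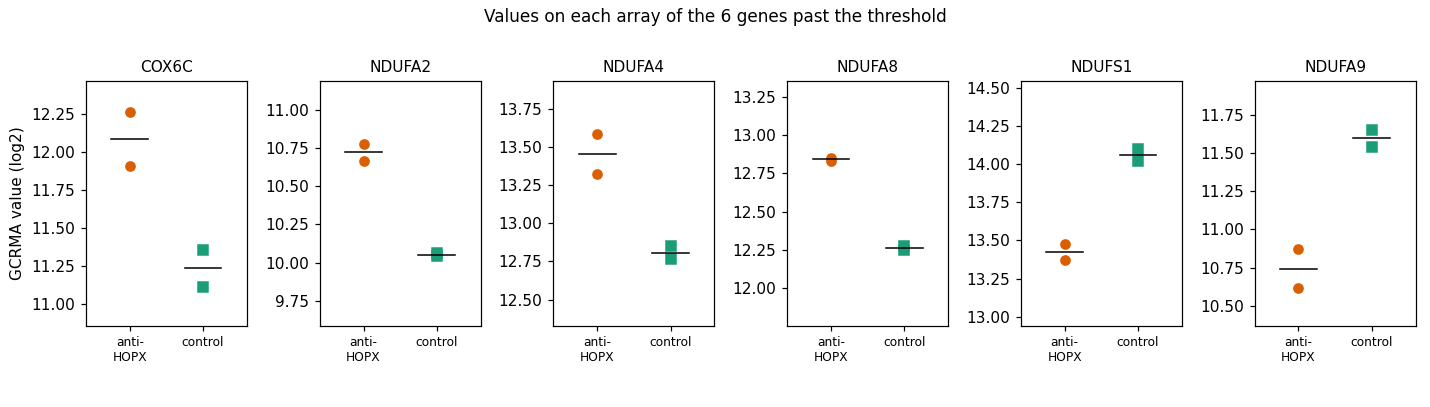
Deposited values (y axis, log2, labelled as GCRMA) on each array of the 6 genes past the threshold. Circles are the 2 anti-HOPX arrays, squares the 2 control arrays and bars the group means. Each panel spans the same range of 1.6 units. The anti-HOPX arrays lie above the control arrays for COX6C, NDUFA2, NDUFA4 and NDUFA8 and below them for NDUFS1 and NDUFA9, with no overlap in any panel.

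Some complex I genes differed by as much without passing. NDUFA1, a small membrane-arm subunit needed for assembly, read 11.23 and 10.71 in anti-HOPX cells, against 10.12 and 10.19 in control cells. The anti-HOPX arrays were both higher but 0.52 apart, and the difference of 0.82 (SE 0.20) did not pass (limma adjusted p = 0.070). NDUFB2, a membrane-arm accessory subunit, read 9.70 and 9.50 in anti-HOPX cells, against 10.12 and 10.28 in control cells, a difference of -0.60 (limma adjusted p = 0.074) with no overlap. NDUFA12 and NDUFA10 were also lower on both anti-HOPX arrays, at -0.29 and -0.25, and their dimmer probe sets differed by -0.69 and -0.64, none past the threshold. The sign was not fixed for NDUFA11, NDUFB3 and NDUFS6, whose measured probe sets fell on both sides of 0, between -0.10 and 0.16, with overlapping arrays.

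**Figure D4:**
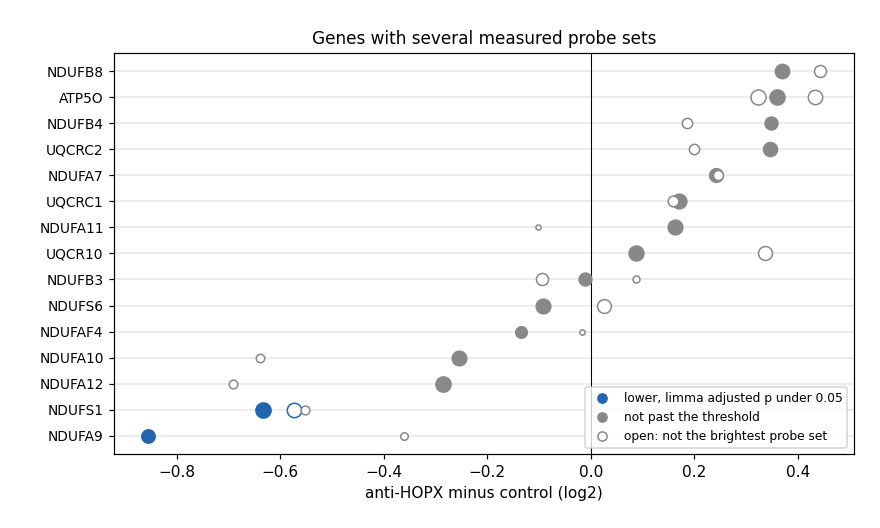
Anti-HOPX minus control difference (x axis, log2) of every measured probe set of the 15 genes with more than 1; filled points are the brightest probe set of the gene, point size grows with the mean value, and blue marks a limma adjusted p under 0.05. The probe sets of NDUFS1, NDUFA9, NDUFA12 and NDUFA10 all lie below 0 and those of NDUFB8 and ATP5O all above it, whereas NDUFA11, NDUFB3 and NDUFS6 straddle 0.

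None of the 8 measured assembly factors of complex I passed with limma, and their median difference was 0.38. An unadjusted limma p under 0.05 was found for 2, again with no background share. NDUFAF2, a paralogue of NDUFA12 that in human cells binds assembly intermediates of complex I, read 8.50 and 8.46 in anti-HOPX cells, against 7.95 and 7.44 in control cells, a difference of 0.79 (SE 0.22, limma adjusted p = 0.097). Both anti-HOPX arrays were higher, and the control arrays lay 0.51 apart. NDUFAF3, NDUFAF5 and NDUFAF7 were also higher on both anti-HOPX arrays, by 0.43, 0.41 and 0.39. NDUFAF4 (-0.13) and NDUFAF1 (-0.02) had overlapping arrays. Of the 8 factors 4 were higher and 0 lower without overlap, against 30.0% and 28.2% of all measured genes. The 7 measured genes of a separate list of complex I assembly factors, among them ACAD9 and FOXRED1, had a median difference of 0.13, and none passed with limma or had an unadjusted p under 0.05.

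Of complex II, succinate dehydrogenase, 2 genes were analysed and neither passed with limma, 1 of them having an unadjusted p under 0.05. SDHA, the flavoprotein that oxidises succinate, read 12.51 and 12.48 in anti-HOPX cells, against 12.18 and 12.24 in control cells (difference 0.29, limma adjusted p = 0.15). SDHD, a membrane anchor, read 11.87 and 11.23 in anti-HOPX cells, against 11.68 and 11.71 in control cells, so that its anti-HOPX arrays lay on either side of the control arrays. The 4 genes of the complex II assembly list had a median difference of 0.47, SDHAF1 being farthest from 0 at 0.68 (limma adjusted p = 0.062).

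All 8 measured genes of complex III, the cytochrome bc1 complex, were above 0, against 52.2% of all measured genes. Their differences ran from 0.06 to 0.41. None passed with limma, and 2 had an unadjusted p under 0.05, again with no background share. UQCRQ, a small accessory subunit, read 10.87 and 10.64 in anti-HOPX cells, against 10.40 and 10.29 in control cells (difference 0.41, limma adjusted p = 0.15). UQCRC2, a core protein of the matrix face, read 12.36 and 12.30 in anti-HOPX cells, against 12.00 and 11.97 in control cells (difference 0.35, limma adjusted p = 0.11). In both the forms did not overlap. The Rieske iron-sulphur protein UQCRFS1, one of the redox subunits of the complex, read 12.06 and 11.93 in anti-HOPX cells, against 11.99 and 11.89 in control cells, with overlap and a difference of 0.06.

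Complex IV, cytochrome c oxidase, held the other 2 genes that rose, among 8 measured. Over all measured genes 3.63% were higher by the same rule. COX6C, a small accessory subunit in the membrane, read 12.26 and 11.91 in anti-HOPX cells, against 11.12 and 11.36 in control cells. The anti-HOPX arrays were both higher, and COX6C rose by 0.85 (SE 0.17, limma adjusted p = 0.042), or 1.80-fold. NDUFA4 is named for complex I but was found to be a subunit of complex IV in mammals, and is grouped here with that complex. It read 13.58 and 13.32 in anti-HOPX cells, against 12.77 and 12.85 in control cells, and rose by 0.64 (SE 0.12, limma adjusted p = 0.040), or 1.56-fold.

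The rest of complex IV moved less and in both directions. COX5A, which lies on the matrix side, read 7.13 and 7.28 in anti-HOPX cells, against 6.65 and 6.74 in control cells (difference 0.51, limma adjusted p = 0.16). COX6A1, the widely expressed form of a subunit that has a separate muscle form in mammals, read 13.67 and 13.56 in anti-HOPX cells, against 13.86 and 13.96 in control cells (difference -0.30, limma adjusted p = 0.13). These did not overlap, in opposite directions. COX4I1, the form of subunit IV found in most tissues, differed by 0.15, COX8A by 0.18 and COX7A2L, which joins complexes III and IV into supercomplexes, by -0.13, none past the threshold. COX4I2, COX6A2, COX7A1 and NDUFA4L2, the forms tied to other tissues or to low oxygen, are not analysed here.

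None of the 11 measured genes of ATP synthase passed with limma, and their median difference was 0.23. An unadjusted limma p under 0.05 was found for 6, a count with no background share to be read against. ATP5PB, the b subunit of the peripheral stalk, which holds the catalytic head still, lay just outside the threshold. It read 13.55 and 13.33 in anti-HOPX cells, against 12.80 and 12.94 in control cells, without overlap, a difference of 0.57 (SE 0.12, limma adjusted p = 0.0502) or 1.49-fold. The other measured stalk genes were higher on both anti-HOPX arrays too, ATP5O (OSCP) by 0.36 and ATP5H (subunit d) by 0.27, with limma adjusted p of 0.13 for each. All 3 measured probe sets of ATP5O lay between 0.32 and 0.43. Of the 11 genes of ATP synthase 6 were higher and 1 lower without overlap, against 30.0% and 28.2% of all measured genes.

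Of the catalytic head, ATP5F1AZ (alpha) and ATP5B (beta) were higher on both anti-HOPX arrays by 0.26 and 0.23, and ATP5C1 (gamma) differed by -0.06 with overlap, none past the threshold. In vertebrates several genes code for the same c subunit of the proton-driven ring. ATP5G1 read 12.81 and 12.84 in anti-HOPX cells, against 12.25 and 12.62 in control cells (difference 0.39, limma adjusted p = 0.18). ATP5G3 read 14.33 and 14.38 in anti-HOPX cells, against 14.38 and 14.47 in control cells (difference -0.07, limma adjusted p = 0.66). ATP5G1 was thus higher on both anti-HOPX arrays, though not past the threshold. ATP5G3 showed almost no difference, and ATP5G2 stayed under 4.

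Other genes of oxidative phosphorylation were taken from 10 lists of assembly factors, carriers, enzymes and regulators, with 108 measured genes in all. Of these 3 rose, 3 fell and 102 did not pass, with a median difference of 0.10. Over all 7691 measured genes 3.63% were higher and 5.24% lower, so genes of the lists were not called more often than those of the array as a whole. The list of complex IV assembly factors held 2 of the rises, COX10 and SCO1. COX10, which makes the haem A precursor for complex IV, read 9.39 and 9.67 in anti-HOPX cells, against 7.70 and 7.77 in control cells, and rose by 1.80 (SE 0.17, limma adjusted p = 0.0059). Its probe sets disagreed, since a dimmer one, under the mean of 4 required for testing, read 3.28 and 3.36 in anti-HOPX cells, against 4.14 and 4.77 in control cells.

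SCO1, a copper chaperone of complex IV, read 4.84 and 4.70 in anti-HOPX cells, against 3.72 and 3.67 in control cells. Its limma adjusted p was 0.034. With values under 4 raised to 4 it was at least 1.71-fold higher but no longer passed (limma adjusted p = 0.052), nor did it pass without anti-HOPX replicate 1 (0.055). The 17 measured genes of complex IV assembly had a median difference of 0.41, and COX17, another copper chaperone, was the farthest from 0 among those that did not pass, at 0.72 (limma adjusted p = 0.058). COX10 and SCO1 both lie on chromosome 18 of the assembly GRCg7b, at places 46 and 18 of its 332 protein-coding genes. Whether position bears on their differences was not tested.

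**Figure D5:**
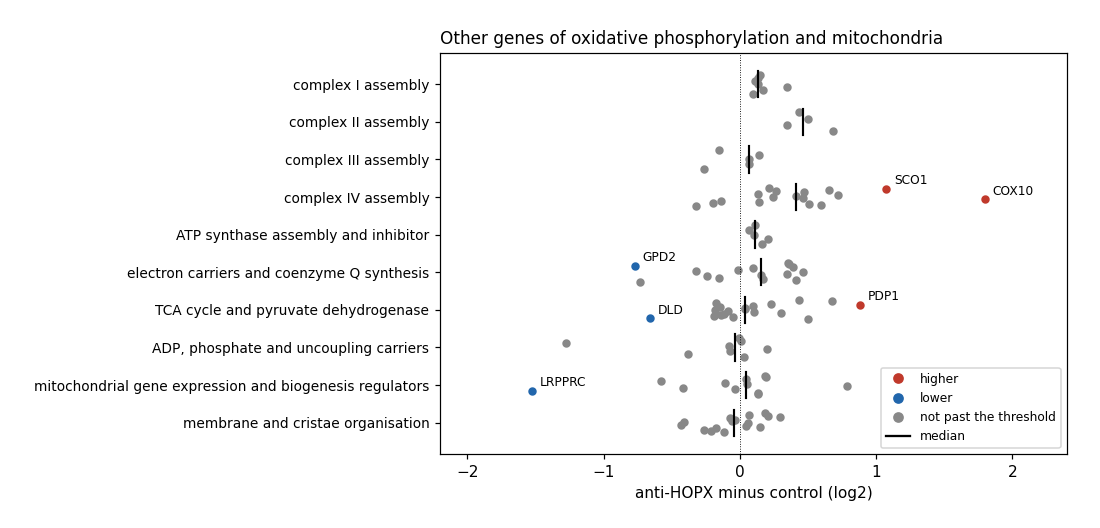
Anti-HOPX minus control difference (x axis, log2) of the measured genes of 10 lists of mitochondrial genes; each point is a gene, the black bar is the list's median, and red and blue mark genes higher or lower at a limma adjusted p under 0.05. Named points are COX10, SCO1 and PDP1 (higher) and LRPPRC, GPD2 and DLD (lower), and the medians of the complex II and complex IV assembly lists lie farthest to the right, at 0.47 and 0.41.

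Among enzymes that feed the chain, GPD2, the mitochondrial glycerol-3-phosphate dehydrogenase that reduces coenzyme Q, read 8.94 and 8.76 in anti-HOPX cells, against 9.58 and 9.65 in control cells, and fell by 0.77 (limma adjusted p = 0.043). DLD, the shared E3 subunit of the pyruvate and 2-oxoglutarate dehydrogenases, read 11.07 and 11.28 in anti-HOPX cells, against 11.89 and 11.77 in control cells, and fell by 0.66 (limma adjusted p = 0.043). All 4 of its probe sets lay between -0.71 and -0.65. PDP1, a phosphatase that activates pyruvate dehydrogenase, read 11.44 and 11.26 in anti-HOPX cells, against 10.37 and 10.57 in control cells, and rose by 0.88 (limma adjusted p = 0.025). The other 17 measured genes of the TCA cycle list did not pass, SUCLG1 (0.67) being farthest from 0, and COQ10B (-0.73, limma adjusted p = 0.052) was farthest among those of the coenzyme Q list that did not pass. Cytochrome c, CYCS, the mobile carrier to complex IV, differed by -0.01.

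Among regulators of mitochondrial gene expression 1 of 12 measured genes passed. LRPPRC, which stabilises mitochondrial messenger RNAs, read 3.71 and 3.31 in anti-HOPX cells, against 4.79 and 5.28 in control cells (limma adjusted p = 0.032). With values under 4 raised to 4 it was at least 2.05-fold lower but no longer passed (limma adjusted p = 0.052). The mitochondrial transcription factor TFAM differed by 0.04, GABPA by 0.13 and NRF1 by -0.42, the last 2 being transcription factors of many respiratory chain genes, and none passed. The coactivators PPARGC1A and PPARGC1B stayed under 4 on every array. POLG2, the accessory subunit of the mitochondrial DNA polymerase, differed by 0.78 (limma adjusted p = 0.056). By limma, none of the lists of complex III assembly (5 measured, median 0.07), ATP synthase assembly and inhibition (5, median 0.11), inner membrane carriers and porins (8, median -0.04) or cristae organisation (16, median -0.04) had a member past the threshold. The porin VDAC1 was farthest from 0 among them at -1.28 (limma adjusted p = 0.089), with 11.24 and 10.16 in anti-HOPX cells and 12.01 and 11.95 in control cells.

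Without control replicate 1 or without control replicate 2, which leaves 1 control array, the calls of the 6 genes were lost. So were most calls over the array as a whole. Such a fit takes its spread between replicates from the 2 anti-HOPX arrays alone. It therefore cannot show whether the calls depended on the control values. The differences of the 6 genes kept the same sign and a similar size. Without anti-HOPX replicate 1 or 2 all 6 still passed. All 6 were also lost when every probe set was tested without the filter on low values (limma adjusted p from 0.066 to 0.16), and when the variance was modelled without an intensity trend (0.055 to 0.098). Calls over all kept probe sets, 464 higher and 674 lower, became 80 and 194 without the filter and 343 and 536 without the trend. COX10, SCO1, PDP1, GPD2, DLD and LRPPRC likewise did not pass without control replicate 1 (limma adjusted p from 0.099 to 0.32) or without control replicate 2 (0.094 to 0.34), with differences of the same sign.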

How the data were processed

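Gene expression in 4 samples was measured by the authors on Affymetrix chicken arrays, with biotin-labelled cRNA made from total RNA of cultured cells, per the labels' protocols. The deposited table holds 1 log2 value for each probe set on each array, a scale judged from the range of the values. The submitters' processing notes list GCRMA and Partek 6.4 but give no roles. GCRMA models background from probe sequence and pulls dim probe sets to a floor. If it made these values, differences of genes near that floor depend on its background model. Its normalisation would also remove any overall difference in RNA amount. No detection calls or raw intensities were used, with scanner settings and filters not given in the sources used here.

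Samples were grouped by their titles. Affymetrix control probe sets (96) were dropped, and probe sets with a mean of at least 4 went into limma 3.58.1 under R 4.3.3 (lmFit, eBayes with an intensity trend, no replicate block). P-values are two-sided and adjusted by Benjamini-Hochberg over all 14851, and rose or fell means an adjusted p under 0.05. The residual degrees of freedom were 2, with a prior of 3.54. An exact permutation test of 2 arrays against 2 cannot go below p = 0.33. The number of arrays limits the precision. A gene is represented by its brightest probe set, under the platform's symbol. Of the 74 symbols, 73 matched a gene of the RefSeq table for GRCg7b by identifier. The table was used for names and gene order only. The procedure was also run on simulated data with independent noise between probe sets, which cannot show how far the calls here hold.

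The members, lists and tests were chosen with earlier results of these data known. Named are the genes past the threshold, the largest differences each way per complex, isoform pairs, genes whose probe sets disagree, and in each other list up to 3 genes that passed and 1 that did not. CYCS, TFAM, GABPA, NRF1, PPARGC1A and PPARGC1B, the core and stalk subunits and the marker genes were named beyond this rule, after their values were seen. Alternatives were other filters, variance models, normalisations and call rules, 1 probe set per gene, and the replicate number as a block. Probe sets with the suffix _x_at, _s_at or _a_at were also left out, as was each array in turn.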

Additional observations from a re-analysis of the deposited data

How the results depend on the processing

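With 2 arrays per form, differences well under 2-fold are at the edge of what limma called here, and dim or bright extremes of the scale are compressed. The 4 member genes higher and 2 lower became 0 and 0 with no filter on low values, 0 and 0 without an intensity trend, and 0 and 0 with at least 2-fold required. They became 1 and 1 without probe sets with the suffix _x_at, _s_at or _a_at, a setting that removes 39 of the 70. With an adjusted p under 0.10, 7 were higher. Leaving out each array in turn gave 0 to 7 higher and 0 to 3 lower. Calls over all kept probe sets, 464 higher and 674 lower, became 343 and 536 without an intensity trend. With at least 2-fold required they were 315 and 499, and without probe sets of those suffixes 350 and 507. Without probe sets of those suffixes, 2 of the 6 genes stayed in the fit and both still passed. No member could reach 2-fold, as the differences ran from -0.86 to 0.85. The cause of the other losses was not tested.

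Over all kept probe sets, 464 higher and 674 lower became 80 and 194 with no filter and 917 and 1203 with an adjusted p under 0.10, and leaving out each array gave 34 to 728 and 108 to 1006. In the other lists, 3 higher and 3 lower became 5 and 5 with a mean of at least 6, 1 and 0 with no filter, and 9 and 7 with an adjusted p under 0.10. There 6 were lower with 1 probe set per gene, 1 without an intensity trend and 1 with 2-fold required, and leaving out each array gave 0 to 4 higher and 0 to 6 lower. Arrays with the same replicate number deviated from their form's mean with a correlation of 0.25 across probe sets, which with 2 pairs does not establish pairing. With the replicate block 12 member genes were higher and 3 lower, 1149 and 1549 of all probe sets, and 10 and 7 of the other lists.

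The median difference of all members ranged from 0.14 to 0.30 with each array left out, that of complex I from 0.12 to 0.30, of its assembly factors from 0.24 to 0.43, of complex II from -0.10 to 0.24, of complex III from 0.12 to 0.32, of complex IV from 0.17 to 0.30 and of complex V from 0.20 to 0.25. Over all measured probe sets in place of genes it was 0.16 for complex I and 0.26 for complex V, which was also 0.26 after centring on array medians. Without probe sets with the suffix _x_at, _s_at or _a_at it was 0.29 for complex II, 0.35 for complex IV and 0.062 for complex V. Complex II turned to -0.10 without anti-HOPX replicate 1.

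Signs also turned for genes that had not passed. With each array left out in turn the differences ran from -0.27 to 0.0088 for COX7A2L, -0.27 to 8.5e-05 for NDUFAF4, -0.076 to 0.038 for NDUFAF1, -0.25 to 0.22 for NDUFB3, -0.32 to 0.13 for NDUFS6 and -0.46 to 0.17 for SDHD. The sign turned without anti-HOPX replicate 1 for COX7A2L, NDUFAF4 and NDUFS6, without anti-HOPX replicate 2 for NDUFAF1, NDUFB3 and SDHD, without control replicate 1 for NDUFAF1, and without control replicate 2 for NDUFB3 and NDUFS6. After centring on array medians, NDUFAF1 stood at 0.0096 and NDUFB3 at 0.016.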
